A study of Homo sapiens with 24 samples.

Results

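The genes described here are 10 targets of the transcription factors XBP1 and ATF6 that serve the endoplasmic reticulum (ER): HSPA5, HSP90B1, CALR, CANX, PDIA3, PDIA4, PDIA6, HERPUD1, XBP1 and DNAJB9. They were taken by gene symbol from the 19692 entries of the deposited tables, and all 10 were found there. The tables come from catabolic SLAM-seq, in which 4-thiouridine (s4U) enters new RNA during a pulse and is later read as T>C conversions, in HEK293, an established human embryonic kidney line. A pulse of 24 h with s4U (100 µM) and doxycycline (1 µg/mL) was given to every culture, and uridine (10 mM) then followed as a chase of 0, 2, 4 or 6 h. Both lines are named for the Flag/HA tag, the control line (Flag/HA-control) with the genotype Flag/HA overexpression and the other with overexpression of ZC3H7B (Flag/HA-ZC3H7B-OE, here ZC3H7B-OE), with 3 libraries for each line and time, hence 24 libraries in 8 groups. The doxycycline, the s4U and the uridine were thus shared by both lines, and no library without s4U is among them. Each line stands for 1 genotype, and the labels do not say whether a line was 1 clone or whether the 3 libraries of a group were separate cultures, and the p-values therefore cover no more than the spread among these libraries, which may be technical.

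Proteins that enter the ER are folded there by the Hsp70 chaperone BiP (HSPA5) and its cofactors, by the lectin chaperones calreticulin (CALR) and calnexin (CANX), which hold glycoproteins, and by protein disulphide isomerases, which make and reshuffle disulphide bonds. When unfolded proteins build up, the sensors ERN1 (IRE1), ATF6 and EIF2AK3 (PERK) start the unfolded protein response. ERN1 removes an intron from XBP1 mRNA, and the spliced XBP1 protein and cleaved ATF6 then bind ER stress elements in the promoters of chaperone and degradation genes. Read counts per gene do not separate spliced from unspliced XBP1.

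The promoters of these genes are known for the ER stress element, so their copies are shown here, as found in RefSeq promoter windows of GRCh38.p14 that run from 250 bases before to 50 bases after an annotated transcription start. In both strands of 35116 windows, 3 motifs were searched: the ER stress element (ERSE) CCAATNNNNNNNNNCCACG, its variant ERSE-II (ATTGG, any base, CCACG), and the core ACGTGG of the element bound by XBP1. Only exact matches to the fixed letters were sought, so near copies are not listed. Windows were in the table for 9 of the 10 genes, all but PDIA3. An ERSE was found in 27 windows (0.0769%), those of 25 genes, and 6 of these genes were CALR, CANX, HSP90B1, HSPA5, PDIA6 and XBP1. Capitals mark the fixed ends of the motif, and each copy is written 5′ to 3′ along the strand that carries it:
HSPA5: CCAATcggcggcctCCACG
HSP90B1, upstream copy: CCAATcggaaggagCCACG
HSP90B1, downstream copy: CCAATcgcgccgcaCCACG
CALR: CCAATgatggtcgaCCACG
CANX: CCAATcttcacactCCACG
PDIA6: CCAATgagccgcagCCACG
XBP1: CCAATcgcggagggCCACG
HERPUD1, ERSE-II: ATTGGgCCACG

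The windows lay at chr9:125241294-125241593 for HSPA5 (minus strand), chr12:103930160-103930459 for HSP90B1 (plus strand), chr19:12938359-12938658 for CALR (plus strand) and chr5:179698679-179698978 for CANX (plus strand). Those of PDIA6 and XBP1 were chr2:10812736-10813035 and chr22:28800520-28800819, both on the minus strand, and those of HERPUD1 and DNAJB9 were chr16:56931892-56932191 and chr7:108569624-108569923, both on the plus strand. With base 1 at the start of transcription, the ERSE of HSPA5 covered bases -66 to -48, that of XBP1 -52 to -34 and that of PDIA6 -86 to -68. The CALR copy at -225 to -207 and the downstream HSP90B1 copy at -89 to -71 were on the strand opposite to the gene. CANX has 4 windows in the table, and the same copy fell in 3 of them, at -151 to -133 in the one given and at -9 to 10 and -189 to -171 in the other 2. PDIA6 and XBP1 have 2 windows each, and the ERSE of each gene fell only in the window given. ERSE-II was found in 19 windows (0.0541%), among them HERPUD1 at -117 to -107. The core ACGTGG was in 3414 windows (9.72%), those of DNAJB9 (2 copies), HERPUD1 (2 copies, 1 of which overlaps its ERSE-II), HSP90B1 and PDIA6 among them. Neither of the 2 PDIA4 windows held an exact match to any of the 3 motifs. The HSPA5 window is printed whole, since BiP is the usual marker of the response:
HSPA5 promoter: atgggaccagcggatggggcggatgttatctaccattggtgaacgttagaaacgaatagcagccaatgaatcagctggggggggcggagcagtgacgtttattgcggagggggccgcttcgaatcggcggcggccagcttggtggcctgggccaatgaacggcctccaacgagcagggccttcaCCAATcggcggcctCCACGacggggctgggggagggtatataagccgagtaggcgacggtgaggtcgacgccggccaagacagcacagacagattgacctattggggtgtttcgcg

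**Figure D1:**
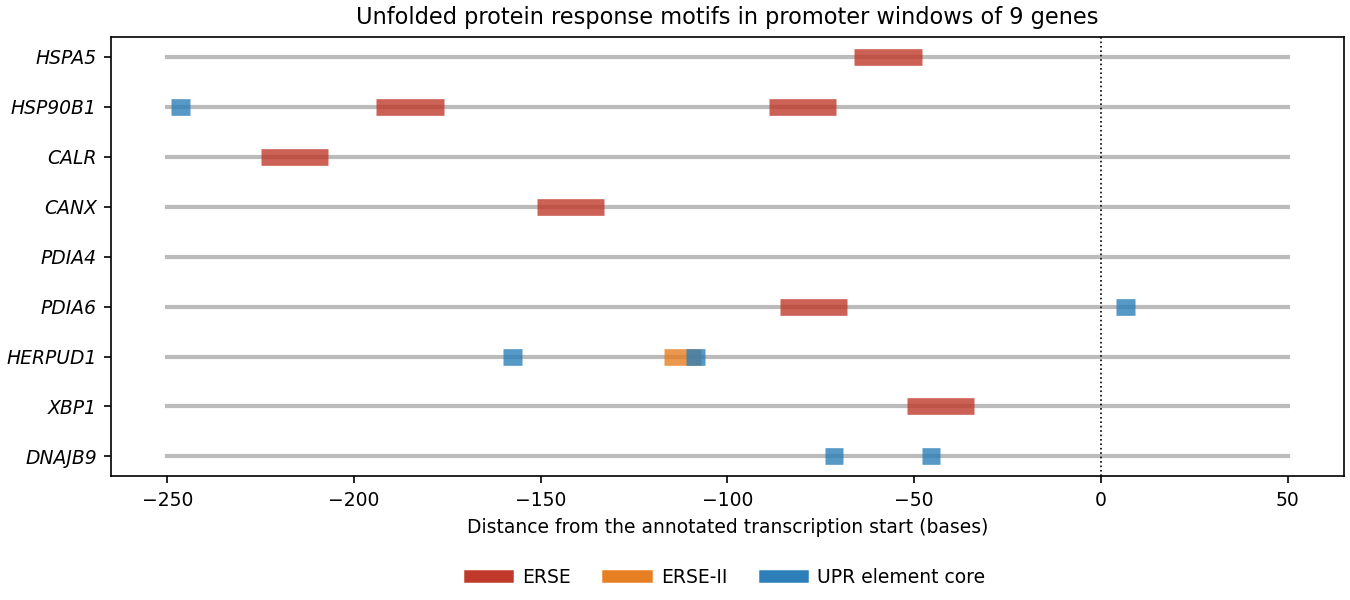
Matches to the ER stress element (ERSE), ERSE-II and the ACGTGG core (UPR element core) in the promoter windows of 9 genes, by distance from the annotated start of transcription in bases. The ERSE copies of HSPA5, PDIA6 and XBP1 and the downstream copy of HSP90B1 lie within 89 bases of the start, and PDIA4 has no exact match.

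Libraries held between 1502068 and 3676254 reads. All those of 0 and 2 h were shallower than all those of 4 and 6 h, so chase time and depth moved together, and the part of depth in the chase results was not tested. Library 3 of the control line at 0 h stood apart, with the fewest reads and the fewest genes with a read (11032). Its factor in the TMM scaling used below was 0.726, against 0.926 to 1.08 in all other libraries, and a low factor raises the scaled levels. Calls of the genes described here that changed without this library are given below. ZC3H7B itself stood at 269 ± 74.0 reads per 1e+06 (CPM) over the 12 control libraries and at 328 ± 75.0 over the 12 others (SD), a log2 difference of 0.28 (SE 0.08, adjusted p = 0.00347 by edgeR) that did not pass without the 0 h libraries (adjusted p = 0.0972). Of 7 genes known for HEK293, 6 were in the tables and all 6 had reads, with a summed level of 142 to 279 CPM. Genes of other cell types were read too. COL1A2 and DCN were at 0 in every library among 5 fibroblast genes, whose summed level was 0 to 6.35 CPM. PRSS1 and PNLIP of 4 pancreatic genes (0 to 0.578 CPM) and APOA1 and APOB of 4 liver genes (0 to 1.73 CPM) were at 0 as well. PTPRC and CD3E were at 0 among 5 leukocyte genes, but the other 3 had reads, with a sum of 37.9 to 272 CPM in control and 55.5 to 124 in ZC3H7B-OE. All 5 epithelial genes (21.1 to 124 CPM) and the 4 plasma cell genes in the tables (15.2 to 40.8 CPM) had reads, and their part in the results was not tested. In bulk RNA, fewer cells with an mRNA and less of it per cell cannot be told apart.

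Levels are CPM scaled by the TMM method, and values of a group are listed by replicate number. All tests across genes are edgeR quasi-likelihood tests with Benjamini-Hochberg adjustment over every entry tested, called at an adjusted p under 0.05. Of the 10 genes, 8 passed the filter on low counts. HSP90B1 (GRP94), the Hsp90 chaperone of the ER, had 0 to 10 reads per library, 30 in all in control and 33 in ZC3H7B-OE, and PDIA3 (ERp57), the isomerase that works with the lectin chaperones, had 0 to 5 reads per library, 6 and 9 in all. Neither had enough reads to be compared. The annotation names 2 pseudogenes after each of these genes and 1 after XBP1, and none after the other 7. How reads shared with such copies were counted is not given in the sources used here, and the part of this in the low counts was not tested.

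Over the mean of the 4 chase times, CALR and PDIA4 were higher in ZC3H7B-OE, and XBP1, CANX and DNAJB9 were lower. HSPA5, PDIA6 and HERPUD1 did not pass. This is 2 of 8 tested genes higher, beside 20.4% of the 10038 entries tested, and 3 lower, beside 25.4%, so both counts are near the share over all entries. The median log2 difference was -0.18 over the 8 genes and 0.01 over all entries. The transcription factor XBP1 and the lectin chaperone CANX gave the lowest values of the 8, and the other lectin chaperone, CALR, gave the highest.

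HSPA5 encodes BiP, the main Hsp70 of the ER and the usual marker of the unfolded protein response. In control it stood at 110.2, 80.2 and 137 CPM at 0 h. Values were then 145, 121 and 106 (2 h), 134, 134 and 135 (4 h) and 149, 101 and 126 (6 h). In ZC3H7B-OE it stood at 115, 105 and 146 CPM at 0 h. This was followed by 103, 132 and 105 (2 h), 157, 113 and 136 (4 h) and 124, 127 and 129 (6 h). The lines overlapped at all 4 times, and so did 0 h and 6 h within each line. The log2 difference between lines was 0.02 (SE 0.09, 95% interval -0.16 to 0.19, adjusted p = 0.900). From 0 to 6 h the log2 change was 0.22 in control (SE 0.18, adjusted p = 0.303) and 0.06 in ZC3H7B-OE (SE 0.18, adjusted p = 0.797). Without library 3 of control at 0 h, the change of HSPA5 in control was 0.41 (SE 0.17) and passed at an adjusted p of 0.0305.

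DNAJB9 (ERdj4) is an Hsp40 cofactor of BiP that also binds ERN1. Its control libraries had 23.5, 23.8 and 41.3 CPM at 0 h. The chase libraries gave 61.2, 68.4 and 68.9 (2 h), 102, 77.4 and 92.8 (4 h) and 134, 113 and 115 (6 h). Those of ZC3H7B-OE had 20.1, 15.0 and 19.1 CPM at 0 h. Values were then 91.3, 74.4 and 74.8 (2 h), 84.8, 83.6 and 88.9 (4 h) and 77.6, 86.6 and 82.2 (6 h). All ZC3H7B-OE libraries lay below control at 0 and 6 h and above it at 2 h, while the lines overlapped at 4 h. DNAJB9 rose over the chase by 2.08 on the log2 scale in control (SE 0.19, adjusted p = 3.84e-11) and by 2.19 in ZC3H7B-OE (SE 0.20, adjusted p = 2.39e-11). Of 10038 entries, 988 had a higher change in control and 1149 in ZC3H7B-OE. Without each of the 6 control libraries of 0 and 6 h in turn, the rise in control ran from 1.96 to 2.36.

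Between the lines, DNAJB9 differed by -0.67 at 0 h (SE 0.22, adjusted p = 0.0219), 0.28 at 2 h (SE 0.18, adjusted p = 0.396), -0.08 at 4 h (SE 0.17, adjusted p = 0.789) and -0.55 at 6 h (SE 0.17, adjusted p = 0.0215), on the log2 scale. The F test of whether the difference changed along the chase gave an adjusted p of 0.100, the smallest of the 8 genes, and an unadjusted p of 0.00368. That test passed without any 1 of the 3 control libraries of 0 h (adjusted p = 0.0371, 0.0396 and 0.0460 without library 1, 2 and 3), and by DESeq2 (adjusted p = 0.0129). Over the 4 times the difference of DNAJB9 was -0.26 (SE 0.09, adjusted p = 0.0231). It did not pass without the 0 h libraries (-0.12, adjusted p = 0.366), without the 6 h libraries (-0.16, adjusted p = 0.268), without library 3 of control at 0 h (-0.19, adjusted p = 0.0627) or without library 2 of ZC3H7B-OE at 0 h (-0.23, adjusted p = 0.0551), and with no filter on low counts it did not pass either (adjusted p = 0.0759). At 0 h alone it did not pass without the same 2 libraries (-0.40, adjusted p = 0.256, and -0.54, adjusted p = 0.108), nor by limma-voom (-0.60, adjusted p = 0.0973). At 6 h the call was lost without library 1 of control or without any 1 library of ZC3H7B-OE, at adjusted p-values of 0.0565 to 0.105, and with no filter (adjusted p = 0.0619).

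XBP1 encodes the transcription factor that ERN1 activates. Control libraries held 674, 504 and 766 CPM at 0 h. This was followed by 642, 634 and 493 (2 h), 589, 524 and 621 (4 h) and 441, 412 and 395 (6 h). ZC3H7B-OE libraries held 373, 385 and 420.0 CPM at 0 h. The chase libraries gave 421, 408 and 406 (2 h), 330.3, 342 and 346 (4 h) and 227, 246 and 264 (6 h). The lines did not overlap at any time, with ZC3H7B-OE lower. The log2 difference over the 4 times was -0.69 (SE 0.07, adjusted p = 2.63e-10), and 8904 of the 10038 entries had a higher value. By time it was -0.72 at 0 h (SE 0.13), -0.52 at 2 h (SE 0.13), -0.77 at 4 h (SE 0.13) and -0.76 at 6 h (SE 0.13), with adjusted p-values of 9.42e-05, 0.00901, 0.000109 and 0.00016. The call over the 4 times held without each of the 24 libraries in turn, with values from -0.73 to -0.66. That at 0 h held without each of the 6 libraries of its time, with values from -0.87 to -0.59. At 2 h it was lost without library 1 or 2 of control (-0.44, adjusted p = 0.0790, and -0.47, adjusted p = 0.0532).

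HERPUD1 (Herp) is a membrane protein of the ER that takes part in ER-associated degradation, and its promoter holds the ERSE-II printed above. It had few reads, 5 to 85 per library. Control stood at 2.45, 4.33 and 18.3 CPM at 0 h. Values were then 15.8, 12.4 and 14.5 (2 h), 20.7, 27.1 and 20.5 (4 h) and 27.7, 16.4 and 24.2 (6 h). ZC3H7B-OE stood at 2.96, 9.66 and 6.93 CPM at 0 h. This was followed by 13.2, 16.1 and 8.14 (2 h), 17.5, 14.4 and 17.5 (4 h) and 14.3, 24.0 and 20.1 (6 h). The lines overlapped except at 4 h, when ZC3H7B-OE lay lower. The difference over the 4 times was -0.25 on the log2 scale (SE 0.21, 95% interval -0.66 to 0.16, adjusted p = 0.337). HERPUD1 rose over the chase by 1.66 in control (SE 0.43, adjusted p = 0.00132) and by 1.54 in ZC3H7B-OE (SE 0.42, adjusted p = 0.00209). Its highest control value at 0 h came from the library that stood apart, and without that library the rise in control was 2.76 (SE 0.44, adjusted p = 1.12e-07).

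CALR encodes calreticulin, the soluble lectin chaperone, which also binds calcium. In control its libraries had 2126, 1922 and 2178 CPM at 0 h. The chase libraries gave 1530.0, 1901 and 1564 (2 h), 992, 927 and 1095 (4 h) and 1024, 854 and 956 (6 h). In ZC3H7B-OE they had 2346, 2759 and 2281 CPM at 0 h. Values were then 2118, 2146 and 1927 (2 h), 1350.4, 1477 and 1339.6 (4 h) and 1062, 1170.2 and 1331 (6 h). All ZC3H7B-OE libraries lay above control at each of the 4 times. The log2 difference was 0.34 over the 4 times (SE 0.06, adjusted p = 1.78e-05), and it stayed called without each of the 24 libraries in turn (0.31 to 0.35). Taken by time, the difference of CALR passed at 4 h (0.47, SE 0.12, adjusted p = 0.00534) and was 0.25, 0.31 and 0.33 at 0, 2 and 6 h (adjusted p = 0.109, 0.101 and 0.0536). At 6 h CALR passed without library 1 of ZC3H7B-OE (0.41, adjusted p = 0.0446).

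CANX encodes calnexin, the membrane-bound lectin chaperone with the same kind of glycan ligand. Its control libraries had 568, 565 and 686 CPM at 0 h. This was followed by 684, 676 and 527 (2 h), 494, 472 and 523 (4 h) and 479, 403 and 439.8 (6 h). Its ZC3H7B-OE libraries had 447, 466 and 399 CPM at 0 h. The chase libraries gave 488, 491 and 395 (2 h), 341, 264 and 257 (4 h) and 316, 359 and 315 (6 h). The groups did not overlap at any time, with ZC3H7B-OE below control, which is the reverse of CALR. The log2 difference was -0.53 over the 4 times (SE 0.07, adjusted p = 7.27e-08) and ran from -0.57 to -0.51 without each library in turn, all called. By time CANX differed by -0.47, -0.46, -0.79 and -0.42 at 0, 2, 4 and 6 h (SE 0.14, 0.13, 0.13 and 0.13), with adjusted p-values of 0.00785, 0.0255, 0.000106 and 0.0311. The call at 0 h was lost without library 3 of ZC3H7B-OE (-0.40, adjusted p = 0.0559). That at 2 h was lost without library 1 or 2 of control or library 3 of ZC3H7B-OE (-0.38, -0.41 and -0.36, adjusted p = 0.158, 0.113 and 0.153). That at 6 h was lost without any library of that time but library 2 of control, at values of -0.36 to -0.46 and adjusted p-values of 0.0568 to 0.134. With no filter on low counts, the CANX calls at 2 h (adjusted p = 0.0606) and 6 h (adjusted p = 0.0880) were lost too.

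PDIA4 (ERp72) is a disulphide isomerase of the ER lumen. Control had 85.2, 95.4 and 103 CPM at 0 h. Values were then 68.3, 61.9 and 52.2 (2 h), 42.1, 36.4 and 57.0 (4 h) and 41.3, 39.8 and 50.2 (6 h). ZC3H7B-OE had 101, 110.1 and 125 CPM at 0 h. This was followed by 70.0, 72.8 and 65.1 (2 h), 56.1, 70.6 and 71.4 (4 h) and 40.7, 49.4 and 42.7 (6 h). The lines overlapped at all 4 times, by a small margin at 0, 2 and 4 h. The difference over the 4 times was 0.25 on the log2 scale (SE 0.09, adjusted p = 0.0213), and it was 0.55 at 4 h (SE 0.18, adjusted p = 0.0298) and 0.02 at 6 h (SE 0.18, adjusted p = 0.967). The call over the 4 times was lost without the 0 h libraries (0.25, adjusted p = 0.0582) and without the 4 h libraries (0.15, adjusted p = 0.252). It was also lost without library 3 of control at 2 h, library 2 of control at 4 h, library 2 of control at 6 h or library 2 of ZC3H7B-OE at 4 h, with values of 0.20 to 0.22 and adjusted p-values of 0.0508 to 0.0652. At 4 h it was lost without library 1 or 2 of control or library 2 or 3 of ZC3H7B-OE (0.41 to 0.50, adjusted p = 0.112 to 0.175), and with no filter (adjusted p = 0.0555).

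PDIA6 (P5) is a disulphide isomerase that works with BiP. Control libraries held 495, 468 and 678 CPM at 0 h. The chase libraries gave 354, 429.8 and 351 (2 h), 269.5, 249 and 291 (4 h) and 237, 212 and 235 (6 h). ZC3H7B-OE libraries held 438, 444 and 464 CPM at 0 h. Values were then 368, 412 and 345 (2 h), 240.3, 250.4 and 275 (4 h) and 188, 228 and 222 (6 h). The lines overlapped at 2, 4 and 6 h, and at 0 h ZC3H7B-OE lay below control. The log2 difference of PDIA6 over the 4 times was -0.12 (SE 0.07, 95% interval -0.25 to 0.01, adjusted p = 0.151). At 0 h it was -0.28 (SE 0.13, adjusted p = 0.109), and it passed there without library 2 of control (-0.38, adjusted p = 0.0404).

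**Figure D2:**
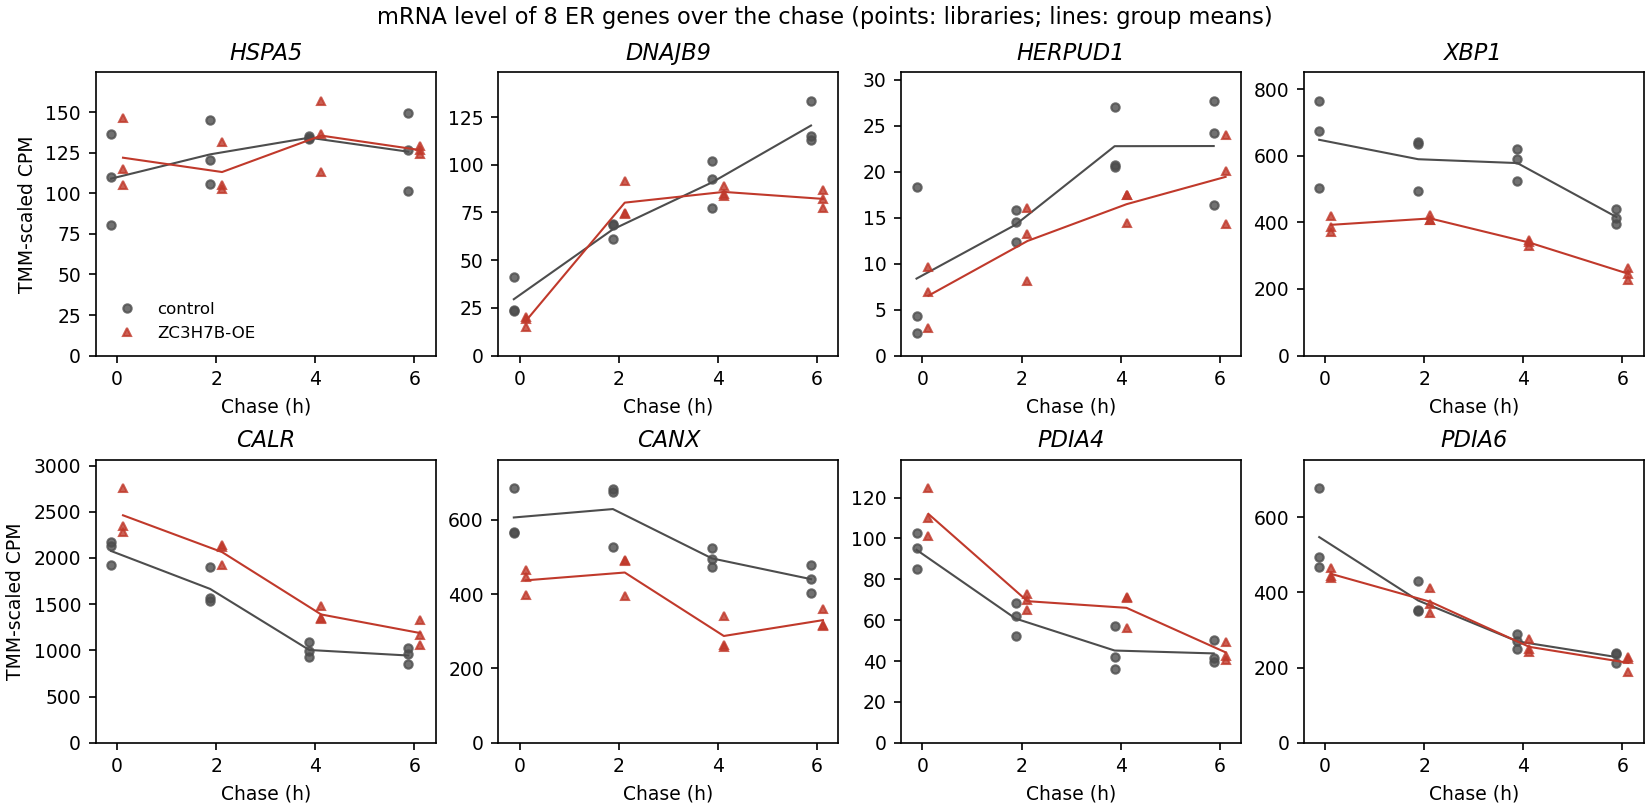
Level of 8 ER genes in TMM-scaled CPM (linear axes from 0) at 0, 2, 4 and 6 h of chase, with circles for control libraries, triangles for ZC3H7B-OE libraries and lines through the means of 3 libraries. XBP1 and CANX lie lower and CALR higher in ZC3H7B-OE at each time, DNAJB9 and HERPUD1 rise over the chase, and CALR, PDIA4 and PDIA6 fall.

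At single times, 0 of the 8 genes were higher at 0 h and 3 were lower (XBP1, CANX and DNAJB9), beside 11.7% of entries higher and 19.5% lower. At 2 h, 0 were higher and 2 lower (XBP1 and CANX), beside 2.19% and 7.27%. At 4 h, 2 were higher (CALR and PDIA4) and 2 lower (XBP1 and CANX), beside 6.85% and 10.8%. At 6 h, 0 were higher and 3 lower (XBP1, CANX and DNAJB9), beside 6.52% and 9.25%. For the 0 counts, CALR was the only gene higher at an unadjusted p under 0.05 at 0, 2 and 6 h, and DESeq2 and limma-voom called it at 6 h but called no gene higher at 0 or 2 h. In the fit of only the 6 libraries of 0 h, 0 genes were called lower there, with adjusted p-values of 0.0555 for XBP1, 0.128 for CANX and 0.171 for DNAJB9.

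Whether the difference between lines changed along the chase was tested for each of the 8 genes, and 0 passed the F test of edgeR, beside 1.73% of entries. DNAJB9 was the only one at an unadjusted p under 0.05, DESeq2 called DNAJB9 and limma-voom called none. The adjusted p was 0.724 for XBP1, 0.479 for CANX, 0.790 for CALR and 0.497 for PDIA4. A p-value above the threshold does not show that these differences were equal at all times.

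**Figure D3:**
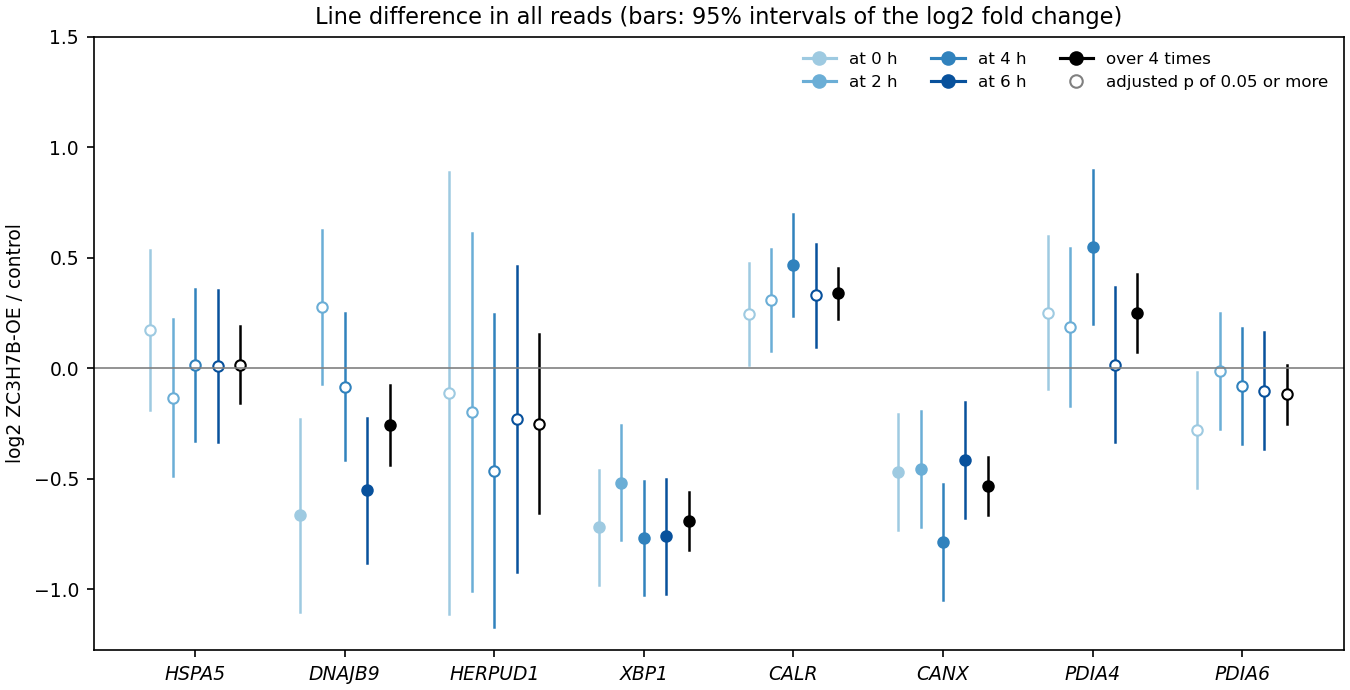
Log2 difference of ZC3H7B-OE against control in all reads for 8 genes, at each chase time (blue) and as the mean of 4 times (black), with bars for 95% intervals. Filled points passed at an adjusted p under 0.05. XBP1 and CANX are filled and below 0 at all 4 times, and DNAJB9 changes side between 0 h, 2 h and 6 h.

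The chase question was how these mRNAs changed between the end of the s4U and doxycycline pulse and 6 h of uridine. In control, DNAJB9 and HERPUD1 rose, 2 of 8 genes beside 30.7% of entries, and CALR, CANX, PDIA4, PDIA6 and XBP1 fell, 5 of 8 beside 29.9%. The same 2 rose in ZC3H7B-OE, beside 32.8%, and the same 5 fell, beside 30.6%. The median change of the 8 genes was -0.55 in control and -0.54 in ZC3H7B-OE, against -0.05 and -0.08 over all entries.

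The deepest falls were those of the isomerases and CALR. PDIA6 fell by 1.26 on the log2 scale in control (SE 0.14, adjusted p = 1.32e-09) and by 1.08 in ZC3H7B-OE (SE 0.14, adjusted p = 2.59e-08). PDIA4 fell by 1.10 (SE 0.18, adjusted p = 3.27e-06) and by 1.34 (SE 0.18, adjusted p = 7.52e-08), and CALR fell by 1.14 (SE 0.12, adjusted p = 7.63e-10) and by 1.05 (SE 0.12, adjusted p = 3.02e-09). XBP1 dropped by 0.64 in control (SE 0.13, adjusted p = 0.000101) and by 0.68 in ZC3H7B-OE (SE 0.13, adjusted p = 4.97e-05). CANX dropped by 0.46 (SE 0.13, adjusted p = 0.00376) and by 0.41 (SE 0.13, adjusted p = 0.00951), the latter not called with no filter on low counts (-0.35, adjusted p = 0.0568). All 5 falls stayed called in both lines without each of the 6 libraries of 0 and 6 h of the line in turn. Their size moved, in control from -0.77 to -0.49 for XBP1 and from -1.34 to -1.06 for PDIA6. In all 5 genes and both lines, every 6 h library lay below every 0 h library of its line. These genes were picked because the same comparison called them, so this adds no support. The share of all entries with such a separation was not counted. Of the 6 genes with an ERSE in their windows, CALR, CANX, PDIA6 and XBP1 fell, HSPA5 did not pass and HSP90B1 was not tested, while PDIA4 fell with no exact match to any of the motifs. This is a description, and it does not show what the motifs do.

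The change from 0 to 6 h was compared between the lines, and 0 of the 8 genes differed, beside 2.52% of entries. By edgeR, DESeq2 and limma-voom alike the count was 0, and 0 genes had an unadjusted p under 0.05. The difference of the change ran from -0.24 for PDIA4 (SE 0.25) to 0.18 for PDIA6 (SE 0.19). Both lines' 0 h and 6 h libraries also enter the differences between lines given above.

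Labelled reads carry T>C conversions and are meant to mark RNA made during the pulse. Their share is then to fall as old mRNA decays and new mRNA is made. Labelled levels did not fall in every gene, and that of DNAJB9 was higher at 2 h than at 0 h, as given below. Labelled ERN1 and SEL1L had positive slopes in control (0.20 log2 units per h each, adjusted p = 0.00184 and 0.000442 by edgeR). Whether label was still added after the chase began was not tested, so labelled reads may not be pulse-made RNA alone. Over whole libraries the labelled share was 74.3% to 78.0% at 0 h, 70.8% to 77.2% at 2 h and 29.0% to 30.5% at 6 h. In XBP1, 97.6%, 97.6% and 97.7% of control reads were labelled at 0 h. The share was 83.4%, 84.7% and 75.4% after 2 h, 36.7%, 34.9% and 37.1% after 4 h, and 18.8%, 16.8% and 17.7% after 6 h. DNAJB9 went from 95.8%, 100.0% and 97.8% in control at 0 h to 14.9%, 9.88% and 11.4% at 6 h, and HSPA5 from 90.2%, 91.2% and 94.6% to 25.2%, 20.7% and 21.4%. These genes were thus almost wholly labelled at the end of the pulse and mostly unlabelled 6 h later. HERPUD1 had 80.0%, 62.5% and 85.0% at 0 h, from 5 to 20 reads a library, and 4.88%, 6.38% and 3.53% at 6 h.

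The lectin chaperones and isomerases began lower than XBP1, DNAJB9 and HSPA5 and ended higher. CALR had 58.2%, 58.3% and 57.6% labelled in control at 0 h and 33.7%, 32.6% and 33.7% at 6 h. CANX had 69.9%, 72.4% and 68.0% at 0 h and 44.9%, 37.6% and 43.0% at 6 h. PDIA6 went from 85.1%, 80.2% and 86.9% to 60.0%, 56.4% and 56.6% over the chase, and PDIA4 from 78.2%, 77.3% and 65.2% to 49.2%, 47.4% and 41.5%. Among entries with at least 100 reads in the 3 libraries of a group together, the median share in control was 88.5% at 0 h and 27.4% at 6 h. Against those entries XBP1 stood above 96.8% of them at 0 h and above 21.9% at 6 h, and DNAJB9 above 97.3% and then 10.7%. CALR stood above 11.0% at 0 h and above 65.4% at 6 h, CANX above 18.2% and then 80.1%, and PDIA6 above 36.4% and then 94.9%. CALR, CANX, PDIA4 and PDIA6 thus went from below XBP1, DNAJB9 and HSPA5 to above them in labelled share within the chase. Among CALR, CANX, PDIA4 and PDIA6 the order of the control means was the same at 0 h and 6 h. HERPUD1 was above only 3.10% of entries at 6 h.

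**Figure D4:**
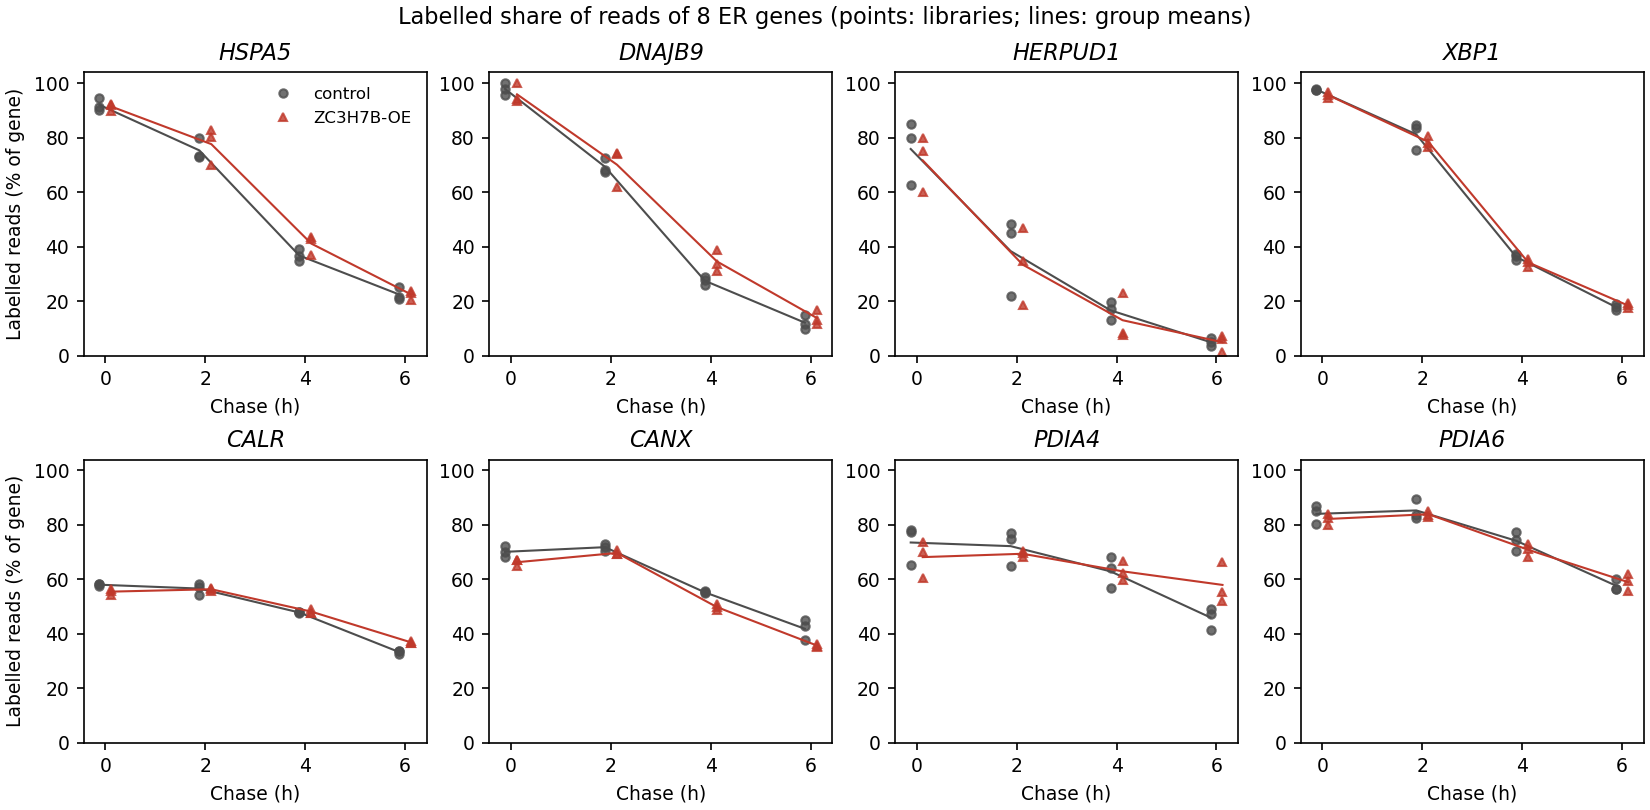
Share of a gene's reads that were labelled, in percent, at 0, 2, 4 and 6 h of chase for 8 genes, with circles for control libraries, triangles for ZC3H7B-OE libraries and lines through group means. XBP1, DNAJB9 and HSPA5 start at 89.9% or more and end at 25.2% or less, and CALR starts at 54.4% to 58.3% and ends at 32.6% to 37.2%.

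The loss of labelled reads was fitted as a slope over hours, on the scale of all reads, which includes dilution by new RNA. Any label added after 0 h would enter this slope too, so it is not a measure of decay alone. A single straight line was fitted from 0 to 6 h, although most of the fall in the whole-library share came after 2 h. In control 7 of the 8 genes had a called loss, beside 75.5% of 8763 entries, and in ZC3H7B-OE 7, beside 72.3%. XBP1 had the steepest slope of the 8, -0.52 log2 units per h in control (SE 0.05) and -0.54 in ZC3H7B-OE (SE 0.05), with adjusted p-values of 1.80e-11 and 3.86e-11. Only 4.75% of entries had a lower slope in control and 2.49% in ZC3H7B-OE. HERPUD1 followed at -0.37 (SE 0.12) and -0.39 (SE 0.12), although its control slope was -0.24 and not called without library 3 of control at 0 h (adjusted p = 0.117) and was not called by limma-voom (adjusted p = 0.0547). CALR lost label at -0.34 and -0.29 per h, HSPA5 at -0.32 and -0.33, PDIA6 at -0.31 and -0.28, PDIA4 at -0.30 and -0.24, and CANX at -0.22 and -0.26, in control and ZC3H7B-OE.

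DNAJB9 was the exception over 0 to 6 h, with slopes of -0.20 (SE 0.10, adjusted p = 0.0632) and -0.18 (SE 0.11, adjusted p = 0.125) that were not called. Its labelled level was 22.5, 23.8 and 40.4 CPM in control at 0 h. This was followed by 41.3, 49.5 and 46.8 (2 h), 28.3, 20.1 and 26.6 (4 h) and 20.0, 11.2 and 13.1 (6 h). In ZC3H7B-OE it was 18.9, 14.0 and 19.1 CPM at 0 h. The chase libraries gave 67.7, 55.1 and 46.3 (2 h), 26.4, 28.1 and 34.6 (4 h) and 8.92, 11.3 and 13.9 (6 h). Labelled DNAJB9 was thus higher at 2 h than at 0 h in every library of both lines and lower again at 6 h than at 2 h. From 2 to 6 h alone the slopes of DNAJB9 were -0.42 (SE 0.06, adjusted p = 3.85e-09) and -0.58 (SE 0.06, adjusted p = 2.57e-13). The other tested genes were called in that window too, in both lines. The share of all entries called from 2 to 6 h was not counted. Over 0 to 6 h it was already 75.5% in control and 72.3% in ZC3H7B-OE. In control and ZC3H7B-OE their slopes were -0.68 and -0.72 for XBP1, -0.56 and -0.59 for HERPUD1, and -0.44 and -0.42 for HSPA5. CALR had -0.41 and -0.36, CANX -0.33 and -0.37, PDIA6 -0.33 and -0.34, and PDIA4 -0.30 and -0.23. DNAJB9 was thus no exception among the 8 genes from 2 to 6 h, a window that starts where its labelled level was highest. The slope over 0 to 6 h of DNAJB9 passed in control without 7 of the 24 libraries (lowest adjusted p = 0.0343) and in ZC3H7B-OE without any 1 of its 0 h libraries (lowest adjusted p = 0.0227).

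The 2 lines were compared in how fast label was lost, and 0 of the 8 genes differed by edgeR, beside 0% of entries, of which 481 had an unadjusted p under 0.05. None of the 8 genes did, and limma-voom called none. The difference of slopes ran from -0.04 for CANX (SE 0.05) to 0.06 for PDIA4 (SE 0.05), and for XBP1 it was -0.01 (SE 0.07). A value that did not pass does not show that label was lost equally fast in both lines. The cause of the level differences between lines was not tested.

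The odds that a read was labelled were also compared between lines at each time. At 0 h, 1 of the 8 genes differed, beside 0.956% of 9619 entries. This was XBP1, with labelled shares of 97.6%, 97.6% and 97.7% in control and 96.7%, 94.5% and 95.6% in ZC3H7B-OE and log2 odds lower by -0.96 (SE 0.25, adjusted p = 0.0362). The XBP1 groups did not overlap, but the call was lost without 5 of the 6 libraries in turn, every one but library 1 of ZC3H7B-OE (adjusted p = 0.0824 to 0.317). At 2, 4 and 6 h, 0 of the 8 genes passed, beside 5.32%, 3.57% and 6.53% of entries. An unadjusted p under 0.05 was reached by 0 genes at 2 h, by CANX at 4 h, and by CALR, PDIA4 and CANX at 6 h, and limma on the odds per library called none at these times. XBP1 passed at 2 h without library 3 of control (-0.53, adjusted p = 0.0196), and CANX at 6 h without library 2 of control (-0.50, adjusted p = 0.0312). With all libraries the value of XBP1 at 2 h was -0.27, near the median over all entries.

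Other genes of the pathway were read from 7 lists without the 10 genes, over the mean of the 4 times. Their counts are to be read beside the 20.4% of all entries that were higher in ZC3H7B-OE and the 25.4% that were lower, and none of these counts is called particular to its list. Of 11 tested sensors and transcription factors, 2 were higher in ZC3H7B-OE and 4 lower. ATF6, the sensor that is cut in the Golgi, was lower by -0.33 (SE 0.08), ERN1 by -0.43 (SE 0.10), DDIT3 (CHOP), a transcription factor of prolonged stress, by -0.34 (SE 0.08), and MBTPS2, the protease that makes the second cut in ATF6, by -1.91 (SE 0.23, from 16.3 ± 8.51 CPM to 4.51 ± 3.25, SD over 12 libraries each). ATF6B, a relative of ATF6, was higher by 0.44 (SE 0.16) and CREB3, a membrane-bound factor, by 0.45 (SE 0.18), and neither call was firm. ATF6B did not pass without library 3 of control at 6 h or libraries 2 of 2 h or 3 of 6 h of ZC3H7B-OE (lowest adjusted p = 0.0511), and CREB3 did not pass without most single libraries, such as library 1 of ZC3H7B-OE at 6 h (0.39, adjusted p = 0.0973). The ERN1 call was lost without the 4 h libraries (-0.27, adjusted p = 0.0626) and that of DDIT3 without the 0 h libraries (-0.22, adjusted p = 0.0586). The values of EIF2AK3 (-0.17, SE 0.20), ATF4, its downstream factor (0.20, SE 0.13), RTCB, the ligase that joins spliced XBP1 (-0.01, SE 0.10), CREB3L2 (0.17, SE 0.07) and MBTPS1, the protease of the first cut (0.26, SE 0.11), did not pass, although each of these but RTCB passed without some single library, EIF2AK3 for one at -0.66 (adjusted p = 0.0270) without library 3 of ZC3H7B-OE at 0 h.

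Over the chase, the 3 sensors rose in both lines. ERN1 rose by 3.54 in control (SE 0.20) and by 2.88 in ZC3H7B-OE (SE 0.20), EIF2AK3 by 2.84 (SE 0.39) and 4.48 (SE 0.44), and ATF6 by 1.40 (SE 0.16) and 1.93 (SE 0.16). DDIT3 fell by 1.87 (SE 0.16) and by 1.42 (SE 0.16), and ATF4 fell by 0.91 (SE 0.26) and by 0.79 (SE 0.25). In each line 4 of the 11 tested genes rose and 5 fell, beside 30.7% of entries that rose and 29.9% that fell in control and 32.8% and 30.6% in ZC3H7B-OE. DDIT3 had a label slope of -0.85 per h in control (SE 0.06), below that of XBP1.

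Among cofactors of Hsp70 and other chaperones, 9 of 14 were tested, with 2 higher in ZC3H7B-OE and 3 lower (20.4% and 25.4% over all entries). DNAJC3, an Hsp40 of the ER lumen, was lower by -0.48 (SE 0.07) and SEC63, the Hsp40 of the translocation pore, by -0.31 (SE 0.08), and SDF2 was higher by 0.31 (SE 0.08). DNAJC3 rose over the chase by 2.08 in control (SE 0.14) and by 2.87 in ZC3H7B-OE (SE 0.15). Of 20 tested genes of disulphide and prolyl isomerisation, 2 were higher and 8 lower (20.4% and 25.4% over all entries), among them TMX4 (-1.01, SE 0.08), FKBP14 (-0.97, SE 0.10) and the oxidase ERO1L (-0.81, SE 0.09).

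In the list of N-glycan addition and the lectin cycle, 13 genes were tested, with 4 higher and 4 lower (20.4% and 25.4% over all entries). The oligosaccharyltransferase subunits STT3B and MAGT1 were lower (-0.73, SE 0.10, and -1.14, SE 0.14), and the glucosidase MOGS, which trims the glycan that CALR and CANX bind, was higher (0.45, SE 0.07). Of 25 tested genes of ER-associated degradation, 7 were higher and 8 lower (20.4% and 25.4%). The ubiquitin-conjugating enzymes UBE2G2 and UBE2J1 moved apart (0.62, SE 0.06, and -0.98, SE 0.11), and SEL1L, the partner of the ligase SYVN1, was lower (-0.75, SE 0.08) and rose over the chase by 3.08 in control (SE 0.16). Of 20 tested translocation genes, 4 were higher and 6 lower (20.4% and 25.4%), SPCS3 of the signal peptidase (-1.21, SE 0.09), SSR3 (-0.97, SE 0.10) and TRAM1 (-0.97, SE 0.12) among the latter. MAGT1 and SSR3 spread widely over the 12 control libraries of all chase times, at 1029 ± 659 and 429 ± 213 CPM (SD). Over the 12 of ZC3H7B-OE they stood at 439 ± 62.1 and 210 ± 38.3 CPM. KDELR1 and KDELR2, receptors that return BiP and other lumenal proteins to the ER, went opposite ways (0.57, SE 0.06, and -0.41, SE 0.07). The medians of the 7 lists lay between -0.05 and 0.08, beside 0.01 over all entries. Every gene said here to be higher or lower passed at an adjusted p under 0.05 by edgeR.

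**Figure D5:**
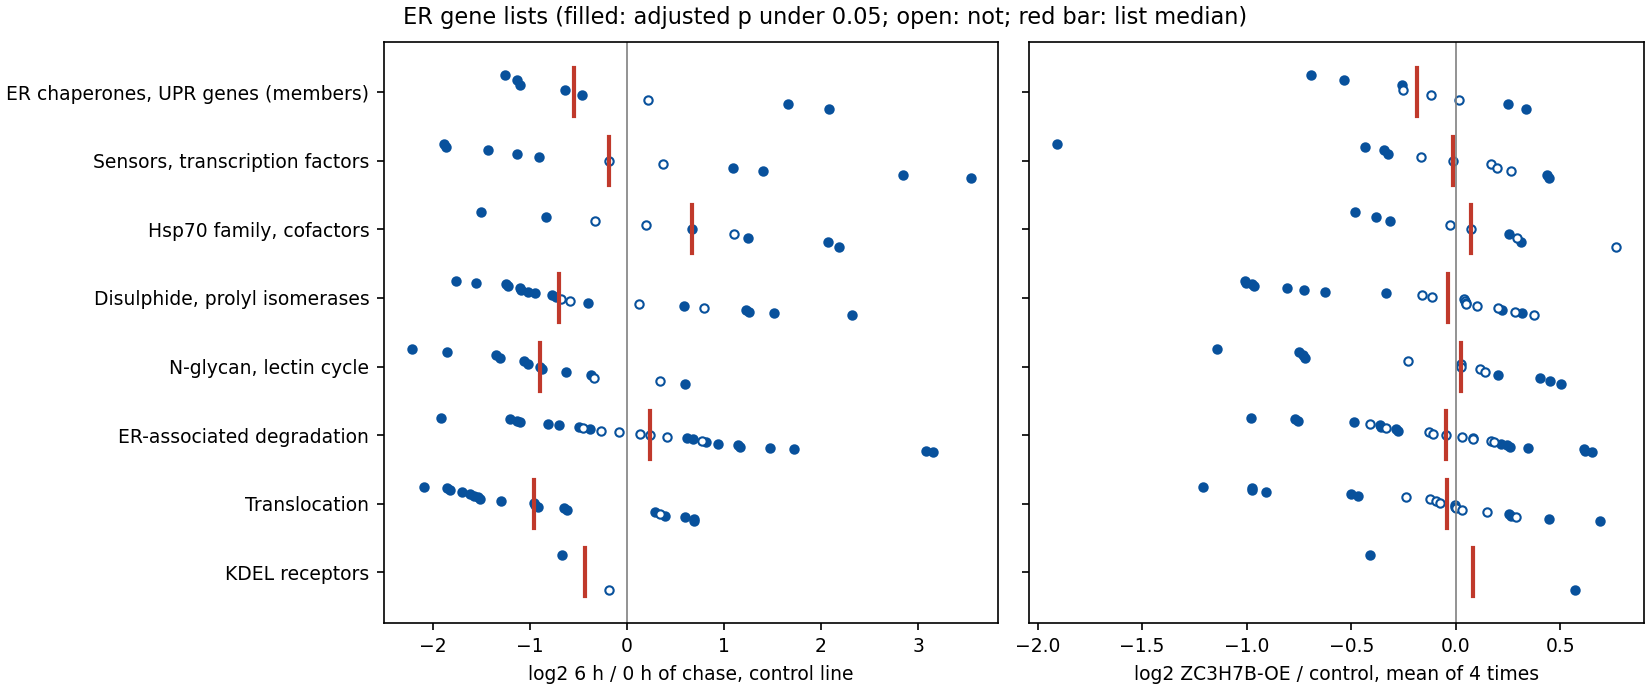
Log2 change over the chase in control (left) and log2 difference of ZC3H7B-OE against control over 4 times (right) for the genes of 8 lists, 1 point a tested gene. Filled points passed at an adjusted p under 0.05 and red bars are list medians. In the right panel each list has genes on both sides of 0, and its median lies between -0.18 and 0.08.

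The genes most like HSPA5 over the 24 libraries were found by Pearson correlation of log2 CPM among 3313 genes with a mean of at least 64 CPM. They were CBX1 (0.66), TERF2IP (0.63), FBXO7 (0.61), ZNF131 (0.58) and NCBP2 (0.57), none of which is in the ER lists. HERPUD1 gave 0.53 with HSPA5, DNAJB9 0.32, XBP1 -0.01, CANX -0.11, PDIA4 -0.22, PDIA6 -0.24 and CALR -0.30. The 24 points share chase times, depth and scaling, so these values describe the libraries and carry no p-value.

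Sequence features that were not used to choose the genes were read from the GENCODE v29 annotation. The share of codons ending in G or C was 69.5% in CALR and 66.4% in PDIA4, 56.6% in XBP1, 51.4% in HERPUD1, 49.5% in HSPA5, 47.6% in PDIA6, 39.9% in CANX and 34.1% in DNAJB9, and the median was 59.5% over genes tested. The 2 genes that were higher in ZC3H7B-OE thus had the highest shares of the 8, and those of the 3 that were lower ran from 34.1% to 56.6%. The T content of the 3′ UTR, which sets how many bases s4U can replace there, was 39.1% in DNAJB9, 36.2% in CANX, 34.5% in XBP1, 33.6% in HERPUD1, 32.9% in PDIA6, 30.2% in CALR and PDIA4, and 29.2% in HSPA5, beside a median of 29.8%. The part of either feature in the results was not tested.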

How the data were processed

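Per the labels, the 24 HEK293 libraries were made from poly(A) RNA with a directional kit and read as paired ends. Whole-number counts without normalization were deposited by the authors, for all reads and for reads with T>C conversions. The submitters' processing notes name fastp and GRCh37. For the aligner, the conversion caller and the counting rule, strand included, the answer is the same: not given in the sources used here. Genes with an antisense neighbour or a close copy are therefore uncertain.

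The main test was the one of edgeR 4.0.16 under R 4.3.3 (robust quasi-likelihood fits of all 24 libraries with a mean per group, TMM, filterByExpr at a minimum count of 10), at an adjusted p of 0.05. Labelled reads (830574 to 1579744 per library) were fitted with the sizes and factors of all reads and a slope over hours in each line, and odds with labelled and unlabelled reads in 1 model. Intervals are at 95%, 1.96 SE on either side. DESeq2 1.42.0 and limma 3.58.1, other scaling, no filter, a replicate block, left-out times and left-out libraries were tried. Scripts were tested on simulated data. No 2 replicates were duplicates, with a chi-square of 2.28 to 30.4 per degree of freedom.

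The members and lists were chosen with earlier results of these data known. All 10 members are described. From each list the rule names up to 3 called genes with the smallest adjusted p, every tested sensor or transcription factor, the 5 genes most like HSPA5, and ZC3H7B.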

Additional observations from a re-analysis of the deposited data

Results flagged for a closer look

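DNAJB9 was set apart because the lines did not overlap in opposite directions at different chase times. This rule was applied to the genes described here alone, and the share of all entries that meet it was not counted. The log2 difference of ZC3H7B-OE against control was -0.67 at 0 h, 0.28 at 2 h and -0.55 at 6 h, and that at 2 h did not pass (adjusted p = 0.396 by edgeR). The difference between times was tested by the F test of edgeR and had an adjusted p of 0.100. Groups of 3 libraries are too small for the test of outlying samples.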

How the results depend on the processing

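Of 2206 values of the 8 genes under another setting, 2132 stayed on the same side of the threshold, 49 lost a call, 25 gained one and 0 called values changed sign, while 100 values that passed under neither setting did change sign. DESeq2 size factors moved the median log2 value of all entries by 0.05 at most. Counts of called genes moved as follows. Over the 4 times, 1 gene was higher with 0 h or with 4 h left out, and 1 to 2 with single libraries left out. Lower genes at 0 h were 0 in the fit of only its 6 libraries. At 2 h they were 1 with no filter and 0 to 2 with libraries left out. Higher genes at 4 h were 1 with no filter and 1 to 2 with libraries left out. At 6 h, lower genes were 1 with no filter and 1 to 3 with libraries left out, and higher genes 1 by DESeq2, limma-voom or only the 6 libraries, and 0 to 1 with libraries left out. For the change of the difference along the chase the count was 1 by DESeq2 and 0 to 1 with libraries left out. For lower labelled odds it was 0 to 1 with libraries left out at 0, 2 and 6 h, and 1 at 6 h from only its 6 libraries. The cause was not tested. Libraries with the same replicate number gave correlations of deviations from -0.164 to 0.214, with 6 of 84 pairs over 0.1. Those with different numbers gave -0.179 to 0.219, with 14 of 168 pairs over 0.1. No pairing by number was seen, which does not show that equal numbers shared no culture or day. The replicate block changed 1 call of the 8 genes, the labelled odds of XBP1 at 0 h (-0.91, adjusted p = 0.0590), and took that count to 0. HERPUD1 rests on 5 to 85 reads per library, which limits its precision. HSP90B1 and PDIA3 had too few reads to compare in libraries that held 10264 reads of CALR in the 3 of control at 0 h, and the cause was not tested.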

Other observations

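The lectin chaperones CALR and CANX were set against each other as a log2 ratio of their CPM within a library, a quantity chosen after their values were seen. The ratio was 1.67 to 1.91 in control and 2.39 to 2.57 in ZC3H7B-OE at 0 h, and 1.16 to 1.57 against 2.12 to 2.29 at 2 h. At 4 h it was 0.974 to 1.07 against 1.99 to 2.48, and at 6 h 1.09 to 1.12 against 1.70 to 2.08. The lines did not overlap at any time. This had to be so, since at each time all ZC3H7B-OE libraries lay above control in CALR and below it in CANX. The separation of the ratio thus adds no support.

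Besides the 6 described, 19 genes have an ERSE in a promoter window. Of these, 14 were in the tables, 1 of them (ERO1LB, now ERO1B) under an older symbol, and 6 were tested. ALG12, a mannosyltransferase of N-glycan assembly, was higher in ZC3H7B-OE by 0.57 on the log2 scale (SE 0.08, adjusted p = 7.48e-07 by edgeR). SERP1, a stress-induced protein of the translocation pore, was lower by -1.10 (SE 0.10, adjusted p = 4.75e-10), EIF2A by -1.09 (SE 0.20, adjusted p = 5.14e-05) and ERO1LB, an oxidase that serves the disulphide isomerases, by -1.01 (SE 0.14, adjusted p = 4.86e-07). CRELD2 (0.29, adjusted p = 0.373) and TRIM5 (-0.61, adjusted p = 0.0910) did not pass.

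Over the chase in control, ALG12 and CRELD2 fell by 1.17 (SE 0.17) and 1.51 (SE 0.55), ERO1LB rose by 1.25 (SE 0.26, adjusted p = 0.000103 by edgeR), and EIF2A, SERP1 and TRIM5 did not pass. In ZC3H7B-OE, ALG12 fell by 1.01 (SE 0.16), ERO1LB rose by 2.45 (SE 0.31), EIF2A by 2.33 (SE 0.44) and SERP1 by 0.55 (SE 0.20, adjusted p = 0.0199), while CRELD2 and TRIM5 did not pass. Genes with an ERSE thus moved in both directions.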
